A study of Mus musculus with 10 samples.

Results

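The genes described here encode 10 antioxidant enzymes, the superoxide dismutases Sod1 and Sod2, the peroxiredoxins Prdx1 to Prdx6 and the glutathione peroxidases Gpx1 and Gpx4. They were taken by symbol, without use of their values in the rule, but chosen with earlier results of these data known. All 10 were found among the 56691 genes of the deposited table. Dopaminergic neurons of the ventral tegmental area expressed NBL10-HA, the construct named in the labels, in male C57BL/6 mice labelled WT, and the RNA bound to ribosomes was enriched and sequenced. The 5 restraint libraries came from mice kept from moving for 30 min, and the 5 control libraries came from mice without restraint, which carried the same construct. The labels give no age, promoter or number of animals per library, so p-values measure the spread between libraries, which may be technical.

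Superoxide leaks from the respiratory chain and is also a by-product of dopamine chemistry. Superoxide dismutases turn it into hydrogen peroxide. Peroxiredoxins and glutathione peroxidases then reduce that peroxide to water, with electrons from thioredoxin or glutathione. Dopaminergic neurons of the midbrain are known for a high oxidant load, and the question asked of these genes is whether their ribosome-bound RNA differed after a short stress.

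Libraries held 56082358 to 86584968 counts, in which the 10 genes took 0.226 to 0.310% after restraint and 0.244 to 0.317% in controls. Restraint 1 stood apart on the first principal component of log2 counts scaled by depth (score -92.1, against -4.1 to 19.2 in the other 9 libraries), and its genes with a count numbered 20936, against 22268 to 24513 in the others. The share of even numbers among counts of 1 to 30, which is raised where both mates of a pair are counted, was 80.0 to 84.8% after restraint and 76.8 to 79.8% in controls, with no overlap. The part of either in the results was not tested, beyond values without restraint 1. Th, the dopamine synthesis gene, averaged 477 ± 65.3 CPM after restraint and 411 ± 78.6 CPM in controls (n = 5 each, SD), where CPM is counts scaled to a common library total after TMM normalization. Ddc, another dopamine synthesis gene, averaged 278 ± 31.5 CPM after restraint and 287 ± 55.1 CPM in controls. RNA of other cells was also present, with the astrocyte gene Gfap at 2471 ± 316 CPM after restraint and 1919 ± 121 CPM in controls. Aldoc, another astrocyte gene, averaged 1322 ± 102 CPM after restraint and 1432 ± 94.3 CPM in controls. The log2 fold change was positive for 8 of 10 dopamine neuron markers and 5 of 8 astrocyte markers. In such bulk samples, fewer cells of a type and less RNA per cell cannot be told apart.

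None of the 10 genes passed the test between restraint and control (0 below 0.05 after Benjamini-Hochberg adjustment in edgeR's quasi-likelihood test of 18440 genes, of which 0.0217% passed, 0.0163% as lower). At an adjusted p under 0.1 the count was still 0, against 0.358% of all genes. All 10 passed the filter on low counts and were tested. At an unadjusted p under 0.05 there were 3 lower genes, Sod1, Prdx2 and Gpx1, and 1 higher gene, Gpx4, where 6.04% of all tested genes were lower and 5.64% higher by that rule. The log2 fold change was negative for 9 of the 10, against 50.4% of all genes. Its median was -0.18, against -0.00 over all genes. The 10 genes were chosen with earlier results of these data known, so their counts beside the shares of all genes are a description only. The groups overlapped for all 10, where 1.36% of all genes lay wholly lower after restraint and 1.25% wholly higher. DESeq2 passed Sod1 and Gpx1 as lower, 2 of the 10, and 0 as higher, where 2.03% of the genes to which it gave an adjusted p passed and 1.24% were lower. Gpx1 enters these counts with only 14 to 141 reads per library, from which its level cannot be read, as described below. Limma-voom passed 0. Without restraint 1 the median was -0.19, 0 passed with edgeR, Sod1 stood at -0.33, Gpx1 at -1.27 and Gpx4 at 0.41, and Prdx2 was no longer at an unadjusted p under 0.05.

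**Figure D1:**
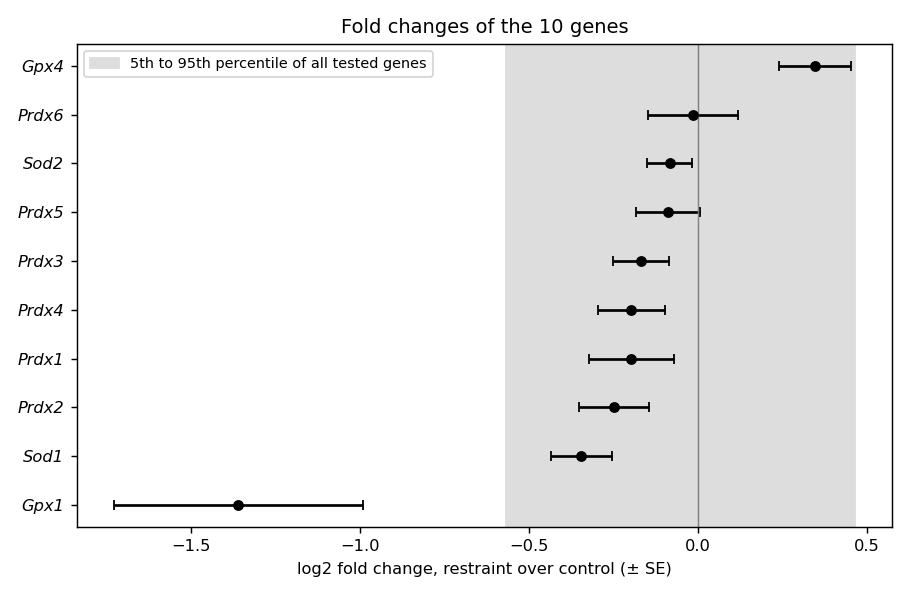
Log2 fold change of each of the 10 genes, restraint over control, with the standard error as a bar; the grey band spans the 5th to the 95th percentile of all tested genes. Gpx4 lies highest at 0.34, and Gpx1, whose level cannot be read from its few counts, lies outside the band at -1.36.

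Sod1 encodes the copper and zinc dismutase of the cytosol (chromosome 16, 90017642 to 90023217, plus strand, GRCm39). It had 386, 462, 391, 336 and 398 CPM in restraint libraries 1 to 5, against 492, 423, 552, 521 and 521 CPM in control libraries 1 to 5. The groups overlapped only through restraint 2, which lay above control 2, and the other 4 restraint libraries lay below every control. Means were 395 ± 44.9 CPM after restraint and 502 ± 49.1 CPM in controls (n = 5 each, SD), a log2 fold change of -0.35 ± 0.09 (SE), or 0.787 of the control level. The adjusted p was 0.159 with edgeR and 0.0308 with DESeq2, and ranged from 0.0308 to 0.396 over all alternatives.

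Sod2 encodes the manganese dismutase of the mitochondrial matrix (chromosome 17, 13225733 to 13258950, plus strand). It stood at 247, 272, 269, 267 and 264 CPM in restraint libraries 1 to 5, against 283, 277, 289, 290 and 258 CPM in control libraries 1 to 5. All 5 restraint libraries were below the control median of 283 CPM, and the spread within each group was the smallest among the 10 genes, with coefficients of variation of 3.75% after restraint and 4.66% in controls. The log2 fold change was -0.08 ± 0.07 (edgeR adjusted p = 0.685). The log2 ratio of Sod1 to Sod2 counts, which no scaling of libraries enters, averaged 0.575 ± 0.16 after restraint, against 0.839 ± 0.153 for the 5 controls (SD, n = 5 each). Its difference of -0.26 had an exact two-sided permutation p of 0.0318. The pair was chosen after the values were seen, so this p supports no call. In all, 3 log2 ratios of these genes were computed, each chosen after the values were seen. Gpx4 to Sod1 was picked because these genes differed in opposite directions, so it is given below without a test, and over the other 2 ratios the adjusted exact p of Sod1 to Sod2 was 0.0635. The adjustment was first made over all 3, which gave 0.0476. That value is under 0.05 only because the picked ratio held the first rank, so it supports no call, and Sod1 to Sod2 did not pass. The smallest p that 5 against 5 libraries can give is 0.00794.

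**Figure D2:**
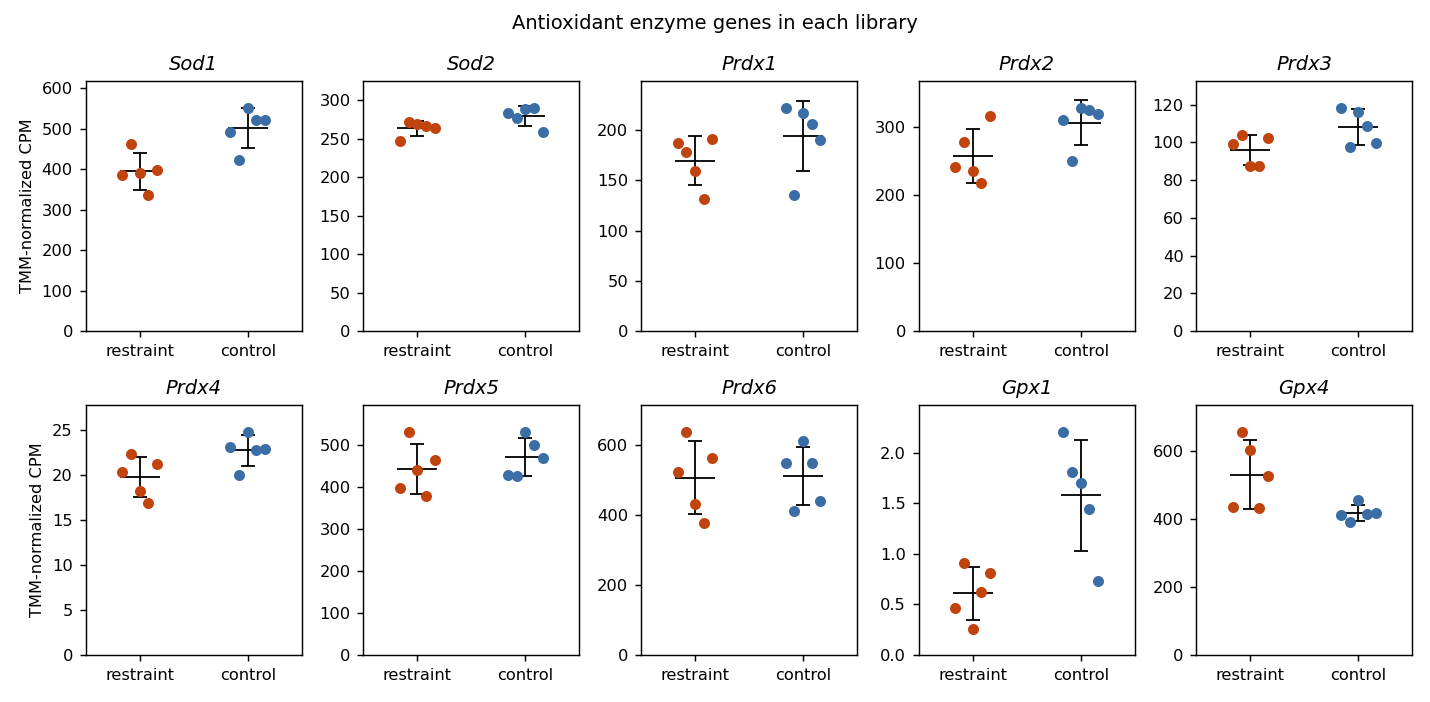
TMM-normalized CPM of each gene in each library, restraint left and control right, with the mean and SD in black and every axis starting at 0. For Sod1, 4 of 5 restraint points lie below all controls, while for Gpx4, 3 of 5 restraint points lie above all controls.

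Prdx1 and Prdx2 encode the typical 2-Cys peroxiredoxins of the cytosol, which thioredoxin recycles. Prdx2 (chromosome 8, 85696216 to 85701463, plus strand) had 242, 278, 235, 218 and 317 CPM in restraint libraries 1 to 5, against 311, 250, 328, 326 and 319 CPM in control libraries 1 to 5. Restraint 1, 3 and 4 lay below every control, while restraint 5 lay among the 4 higher controls. The log2 fold change was -0.25 ± 0.10 (edgeR adjusted p = 0.35), with 11.5% of exon bases shared with Rnaseh2a and Junb on the opposite strand. Red blood cells also hold much of this peroxiredoxin. The summed CPM of 5 red cell markers was 5.86 to 11.3 after restraint and 4.94 to 16.2 in controls, with 4 of 5 negative. Its part in the Prdx2 values was not tested.

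Prdx1 (chromosome 4, 116542741 to 116558019, plus strand) had 187, 178, 159, 132 and 191 CPM in restraint libraries 1 to 5, against 222, 136, 217, 206 and 190 CPM in control libraries 1 to 5. All 5 restraint libraries were below the control median of 206 CPM, and controls 1, 3 and 4 lay above every restraint library, while control 2 was about as low as restraint 4. The log2 fold change was -0.20 ± 0.13 (edgeR adjusted p = 0.587). The log2 ratio of Prdx2 to Prdx1 counts was 0.608 ± 0.148 after restraint, against 0.674 ± 0.149 for controls (SD, n = 5 each). Its exact permutation p was 0.508, two-sided, and was the same after adjustment over 2 or 3 ratios.

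Prdx3 encodes the mitochondrial 2-Cys peroxiredoxin (chromosome 19, 60852489 to 60862994, minus strand). It had 98.9, 104, 87.3, 87.5 and 102 CPM in restraint libraries 1 to 5, against 118, 97.3, 116, 109 and 99.4 CPM in control libraries 1 to 5. All 5 restraint libraries were below the control median, with a log2 fold change of -0.17 ± 0.08 (edgeR adjusted p = 0.458). Prdx4, the peroxiredoxin of the endoplasmic reticulum (chromosome X, 154106914 to 154123750, minus strand), ran from 16.9 to 22.3 CPM with a median of 20.3 after restraint, and from 20.0 to 24.8 CPM with a median of 22.8 in controls. It too was below the control median in all 5 restraint libraries, with a log2 fold change of -0.20 ± 0.10 (edgeR adjusted p = 0.465). The share of all tested genes for which this held is not given, so here and for Sod2 and Prdx1 it is a description only.

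Prdx5, an atypical 2-Cys peroxiredoxin found in mitochondria, peroxisomes and cytosol (chromosome 19, 6884065 to 6887474, minus strand), ran from 379 to 531 CPM with a median of 442 after restraint, and from 426 to 532 CPM with a median of 469 in controls. Prdx6, the 1-Cys peroxiredoxin that is recycled with glutathione and also acts as a phospholipase (chromosome 1, 161067682 to 161078789, minus strand), ran from 378 to 640 CPM with a median of 523 after restraint, and from 411 to 612 CPM with a median of 549 in controls. Log2 fold changes were -0.09 ± 0.10 and -0.01 ± 0.13 (edgeR adjusted p = 0.788 and 0.983). For Prdx6 the restraint group was both the lowest and the highest of the 10 libraries, and its sign turned without restraint 3 or 4 or control 1, 3 or 4 (0.01 to 0.08). Prdx5 shares 19.1% of its exon bases with Trmt112 on the opposite strand.

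Prdx6 is known as an astrocyte-rich enzyme in brain. Astrocyte markers were positive for 5 of 8, with a summed level of 5513 to 6567 CPM after restraint and 5077 to 5761 CPM in controls, and their part in the Prdx6 values was not tested.

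Gpx1 and Gpx4 differ from the other 8 genes in that both encode selenoproteins, in which a UGA codon is read as selenocysteine at the active site. The codon and its flanks of 18 bases on each side are shown because this insertion sets both genes apart. They come from GENCODE M21 transcripts (GRCm38), with the codon in capitals, on the plus strand at chr9:108339451-108339453 for Gpx1 and at chr10:80054737-80054739 for Gpx4.
Gpx1: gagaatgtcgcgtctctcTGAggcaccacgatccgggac
Gpx4: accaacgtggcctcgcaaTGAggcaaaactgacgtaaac

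Gpx4 reduces lipid hydroperoxides within membranes and protects cells from ferroptosis (chromosome 10, 79883000 to 79892273, plus strand, GRCm39). It had 436, 659, 604, 433 and 529 CPM in restraint libraries 1 to 5, against 412, 392, 457, 417 and 417 CPM in control libraries 1 to 5. Restraint 2, 3 and 5 lay above every control, while restraint 1 and 4 lay within the control range, at its upper end. Means were 532 ± 100 CPM after restraint and 419 ± 23.4 CPM in controls (n = 5 each, SD), so the group spread was wider after restraint. The log2 fold change was 0.34 ± 0.11, or 1.27 times the control level (edgeR adjusted p = 0.21, DESeq2 0.0673, and from 0.0591 to 0.484 over all alternatives). The log2 ratio of Gpx4 to Sod1 counts ran from 0.17 to 0.63 after restraint and from -0.32 to -0.11 in controls, without overlap, and is given as a description since the pair was picked for its values.

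Some reads of Gpx4 may not be told apart from those of its annotated copy, although no alignments were examined. Of the 50-base words in the GENCODE M21 transcripts of Gpx4, 34.7% also occur in transcripts of genes elsewhere, chiefly the transcribed pseudogene Gpx4-ps2. Reads that fit both places equally well were left out of the counts. Gpx4-ps2 itself had 25.8, 44.0, 37.2, 29.3 and 35.5 CPM in restraint libraries 1 to 5, against 25.4, 21.04, 27.1, 24.2 and 22.8 CPM in control libraries 1 to 5. Its log2 fold change was 0.51 ± 0.13 (edgeR adjusted p = 0.137, DESeq2 0.0148), and restraint 2 was the highest library for both genes. The origin of the reads counted for Gpx4-ps2 was not tested.

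Gpx1, the cytosolic and mitochondrial glutathione peroxidase (chromosome 9, 108216102 to 108217542, plus strand), was barely counted. It had 32, 60, 14, 42 and 69 reads in restraint libraries 1 to 5, against 141, 136, 114, 105 and 42 reads in control libraries 1 to 5. Of its 1441 exon bases, 84.0% are shared with ENSMUSG00000121068 on the opposite strand. Counting did not use strand, so reads that touch both genes were not assigned. The counts therefore come from what remained, and the level of Gpx1 cannot be read from them. In CPM the means were 0.61 ± 0.261 after restraint and 1.58 ± 0.548 in controls (n = 5 each, SD), with control 5, at 0.731 CPM, inside the restraint range. The log2 fold change was -1.36 ± 0.37 (edgeR adjusted p = 0.162, DESeq2 0.026).

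Among the 7 genes besides Prdx1, Sod2 and Gpx4, at most 4.53% of the 50-base words occur in transcripts of genes elsewhere (Prdx2). Prdx3, Prdx4, Prdx5 and Gpx1 share none. The share was 21% for Sod2 and 8.81% for Prdx1.

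Levels between genes were compared per length, as TPM, a transcript share scaled to a common total, on the deposited exon length. Gpx4 stood highest, at 1105 ± 160 TPM after restraint and 869 ± 35.2 TPM in controls (n = 5 each, SD). Prdx5 followed at 744 ± 66.2 TPM after restraint and 788 ± 59.2 TPM in controls, and its control range overlapped that of Gpx4. Sod1 came next at 357 ± 28.4 TPM after restraint and 452 ± 33.7 TPM in controls. In controls the ranges of Sod1 and Prdx6 overlapped, as did those of Prdx6 and Prdx2, and of Prdx3 and Prdx1. Gaps without overlap lay between Prdx5 and Sod1, between Prdx2 and Prdx3, and below Prdx1, where Sod2 stood at 94.9 ± 3.47 TPM after restraint and 100 ± 5.5 TPM in controls. Prdx4 was lower still, at 33.8 ± 3.14 TPM after restraint and 38.5 ± 2.31 TPM in controls.

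**Figure D3:**
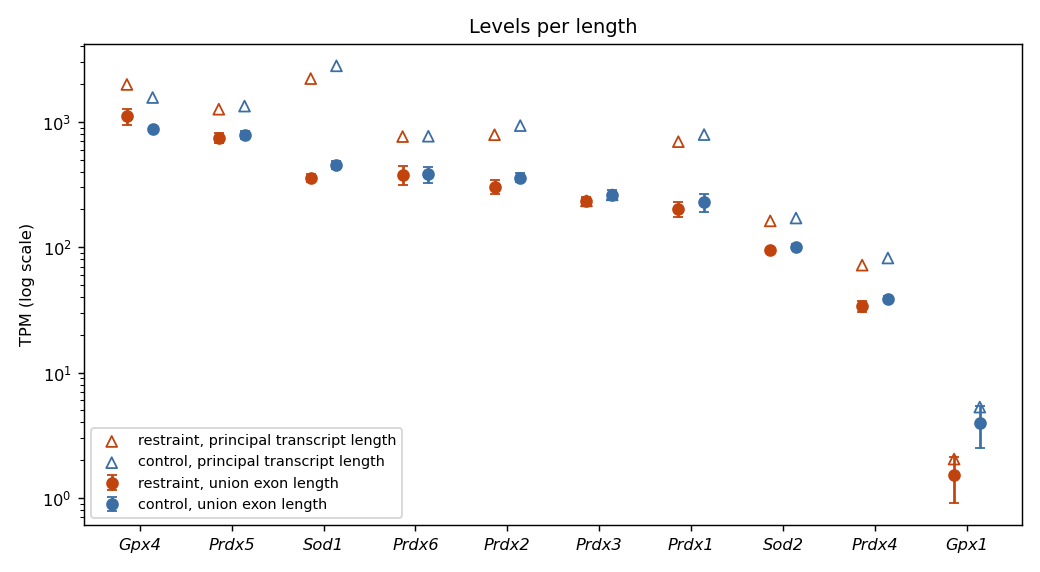
Levels per length on a log axis. Circles are the mean and SD of TPM in 5 restraint and 5 control libraries on the deposited exon length. Triangles are means with the principal transcript length for each gene shown and the common total kept on deposited lengths. Gpx4 leads on the deposited length at 869 TPM in controls, and Sod1 leads on the principal transcript length at 2797 in controls.

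This order depends on which length is used. The deposited length joins the exons of all annotated transcripts, which gives 3970 bases for Sod1, while its principal transcript in GENCODE M21 has 641. On principal transcript lengths Sod1 ranked highest, at 2213 ± 176 TPM after restraint and 2797 ± 209 TPM in controls, ahead of Gpx4 at 1987 ± 288 TPM after restraint and 1563 ± 63.3 TPM in controls. Leaving aside Gpx1, whose level cannot be read from its counts, Sod2 and Prdx4 were the lowest on both lengths.

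Most of the 10 genes were low and high in the same libraries. The median of their log2 CPM, each relative to its control mean, was -0.17, -0.04, -0.28, -0.42 and -0.04 in restraint libraries 1 to 5, against 0.03, -0.16, 0.14, 0.06 and -0.01 in control libraries 1 to 5. Restraint 4 was the lowest library and control 3 the highest, and control 2 was as low as restraint 1, so that the groups overlapped. A measure of the whole library moved with these values. The slope of log2 CPM on log2 exon length, over 8538 expressed genes other than the 10, was 0.07, -0.07, 0.01, 0.10 and -0.05 per doubling of length in restraint libraries 1 to 5, against -0.00, 0.07, -0.07, -0.03 and -0.03 in control libraries 1 to 5. The 3 libraries with the steepest positive slope, restraint 4, restraint 1 and control 2, had among the lowest medians, although restraint 3, with a slope near 0, was second lowest. The part of length in these values was not tested beyond the fit that follows. With each library's length trend removed, the median log2 fold change of the 10 genes was -0.15, that of Sod1 was -0.35 and that of Gpx4 was 0.37, and 0 of the 10 passed in edgeR (4 by the unadjusted p).

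**Figure D4:**
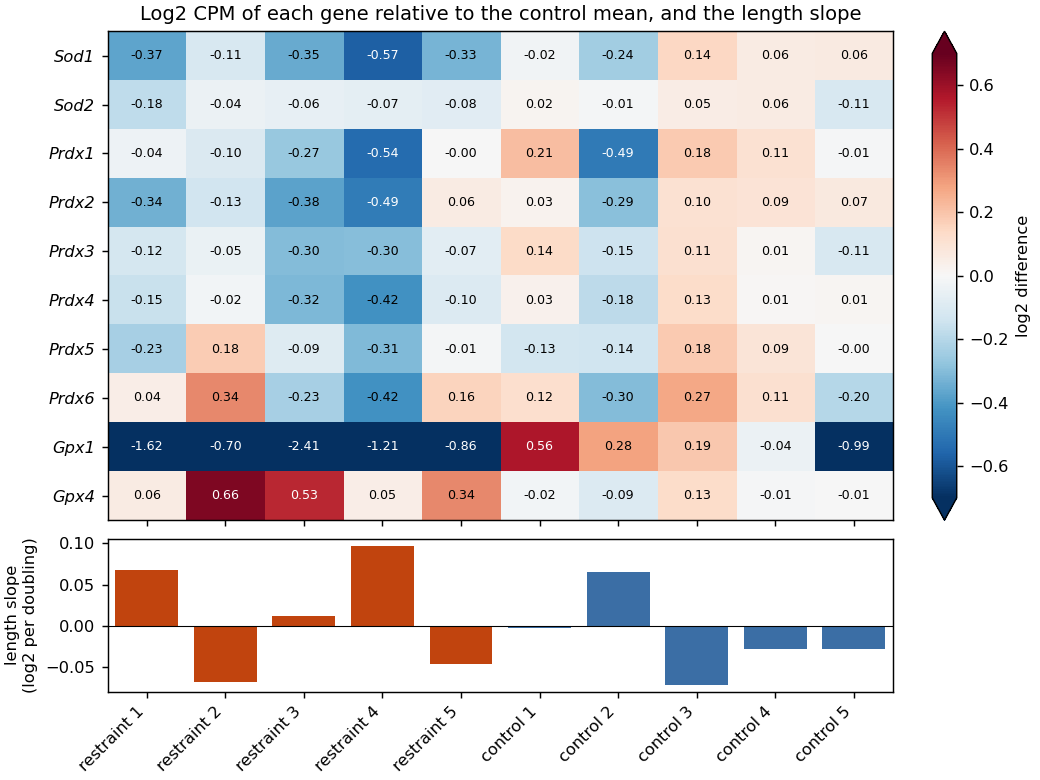
Log2 CPM of each gene relative to its control mean (colour, with the value in each cell; colours stop at 0.7 in either direction) for 5 restraint and 5 control libraries, above each library's slope of log2 CPM on log2 exon length. Restraint 4 and control 2 are low for most rows and have positive slopes, while the Gpx4 row is positive in all 5 restraint libraries.

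Genes with the library profile most like the mean of the 10 were sought among the other tested genes. Predicted gene models and genes with no symbol were left out. Likeness was the root mean square difference between standardized log2 CPM over the 10 libraries, where 0 means the same profile. The closest 5 were Rplp2 (0.245) and Rps23 (0.245), which encode ribosomal proteins, Pex2 (0.258), of peroxisome assembly, Ndufb11 (0.261), of respiratory complex I, and Rbm12 (0.273), an RNA-binding protein gene. Of the 10 genes, Prdx4 lay nearest to their own mean (0.338) and Gpx4 farthest (1.37). None of the 5 passed with edgeR (adjusted p from 0.293 to 0.438).

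The partners that recycle or load these enzymes were described from lists of the same pathways. Counts in each list that follows stand beside 6.04% of all tested genes lower and 5.64% higher by the unadjusted p. DESeq2 passed 2.03% of the genes to which it gave an adjusted p, and 1.24% were lower. Of 18 genes of the thioredoxin system, none passed in edgeR, 3 were lower and 1 higher by the unadjusted p, DESeq2 passed 1 as lower, and the median log2 fold change was -0.03. Txn1, the thioredoxin that reduces peroxiredoxins in the cytosol, had 52.4, 67.8, 50.9, 44.7 and 80.8 CPM in restraint libraries 1 to 5, against 93.1, 70.0, 108, 91.4 and 81.7 CPM in control libraries 1 to 5. Restraint 1, 2, 3 and 4 lay below every control, and restraint 5 lay below all but control 2. Its log2 fold change was -0.58 ± 0.15 (edgeR adjusted p = 0.144, DESeq2 0.0104). Glrx, a glutaredoxin gene (-0.28 ± 0.09), and Txnrd2, the mitochondrial thioredoxin reductase gene (-0.26 ± 0.11), were the other lower genes, and Txnip, which encodes a thioredoxin inhibitor, was higher at 0.60 ± 0.26 (edgeR adjusted p from 0.234 to 0.372). Txnip shares 19.4% of its exon bases with Gm15441 on the opposite strand.

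Of 17 genes for superoxide partners and the NRF2 pathway, which switches on antioxidant genes, none passed in edgeR or DESeq2, 2 were lower and 1 higher by the unadjusted p, and the median was -0.03. Ccs, the chaperone that loads copper into the Sod1 enzyme, had 19.4, 22.2, 17.7, 14.3 and 23.2 CPM in restraint libraries 1 to 5, against 26.4, 21.2, 29.1, 29.7 and 23.9 CPM in control libraries 1 to 5. All 5 restraint libraries lay below 4 of the controls, and control 2 was the exception, as it was for Txn1. Its log2 fold change was -0.43 ± 0.13 (edgeR adjusted p = 0.198). Nfe2l2, the NRF2 gene, stood at 0.28 ± 0.12, Park7, a Parkinson disease gene of the oxidative stress response, at -0.22 ± 0.10, and Sqstm1, an autophagy receptor gene, at -0.15 ± 0.07 (edgeR adjusted p from 0.371 to 0.434). Sqstm1 shares 17.3% of its exon bases with Mrnip.

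Of 17 genes for glutathione and catalase, none passed in edgeR or DESeq2 and 1 reached the unadjusted threshold, with a median of 0.01. That gene was Gpx3, the secreted glutathione peroxidase, at 0.26 ± 0.11, and the next were the glutathione transferase genes Gstm5 (-0.21 ± 0.10) and Gsta4 (-0.17 ± 0.09) and the peroxidase gene Gpx8 (0.29 ± 0.17), with edgeR adjusted p from 0.39 to 0.542. Gstm5 shares 13.9% of its exon bases with 4933431E20Rik.

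Of 16 genes for selenoproteins and selenocysteine insertion, none passed in edgeR, and DESeq2 passed 1 as higher. By the unadjusted p 4 were higher and 0 lower, where 5.64% of all tested genes were higher and 6.04% lower. The log2 fold change was positive for 13, where 50.4% of all tested genes were negative, and the median was 0.03. Selenop, which encodes the selenium transport protein, had 221, 222, 202, 231 and 188 CPM in restraint libraries 1 to 5, against 165, 189, 160, 176 and 164 CPM in control libraries 1 to 5. The groups touched only at restraint 5, which lay just under control 2. Its log2 fold change was 0.32 ± 0.08 (edgeR adjusted p = 0.137, DESeq2 0.0183), with 15.4% of exon bases shared with Ccdc152 on the opposite strand. Selenof (0.22 ± 0.09), Scly, which releases selenium from selenocysteine (0.21 ± 0.10), and Selenow (0.27 ± 0.12) were the other 3 (edgeR adjusted p from 0.336 to 0.417). Selenop is also made by astrocytes, and the astrocyte levels given above were not tested for their part in it.

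**Figure D5:**
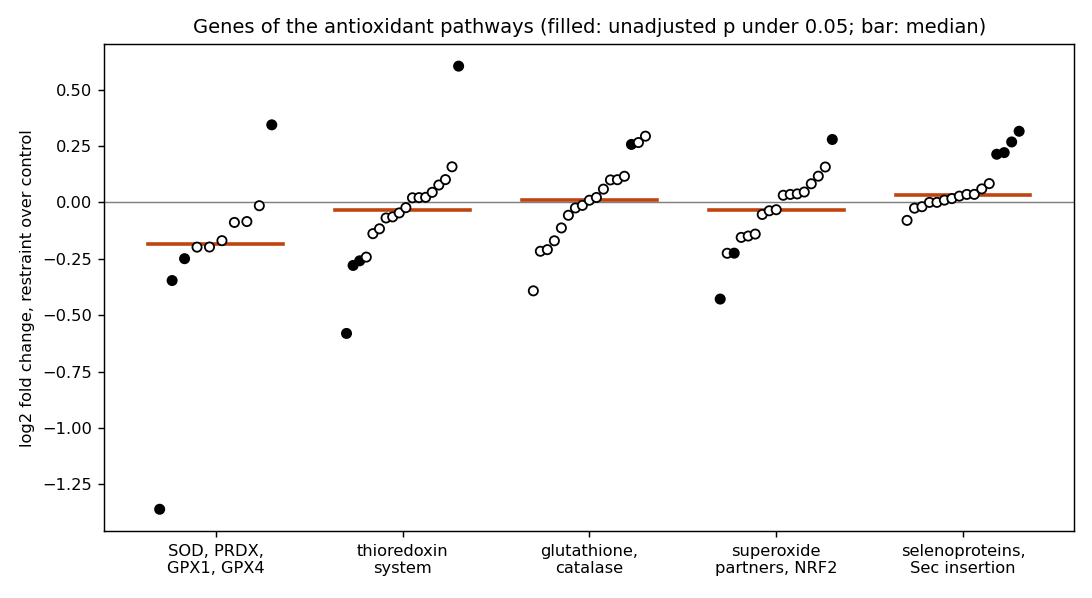
Log2 fold change, restraint over control, of each tested gene in the 5 groups of genes, with a red bar at the median and filled points for an unadjusted p under 0.05. The 10 enzyme genes have a median of -0.18, and the other 4 groups have medians between -0.03 and 0.03.

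None of the genes in the 8 lists of cell markers passed in edgeR. Median log2 fold changes were 0.15 over 10 dopamine neuron genes, 0.11 over 8 astrocyte genes, 0.05 over 8 oligodendrocyte genes, -0.02 over 8 microglia genes, 0.25 over 8 vascular genes, -0.02 over 3 GABA neuron genes, -0.07 over 3 glutamate neuron genes and -0.27 over 5 red blood cell genes. By the unadjusted p, 3 dopamine neuron, 1 astrocyte, 3 oligodendrocyte and 3 vascular genes were higher and 1 vascular gene was lower. Over all tested genes 5.64% were higher and 6.04% lower by that rule. In 2 markers, every restraint library lay above every control, which held for 1.25% of all tested genes. En1, a transcription factor gene of midbrain dopamine neurons, averaged 55.1 ± 4.89 CPM after restraint and 37.2 ± 5.91 CPM in controls (n = 5 each, SD), a log2 fold change of 0.57 ± 0.11 (edgeR adjusted p = 0.0662, DESeq2 0.000418). Gfap, whose means are given above, had a log2 fold change of 0.37 ± 0.09 (edgeR adjusted p = 0.118, DESeq2 0.0148). En1 and Gfap are singled out for these values, and their part in the values of the 10 enzyme genes was not tested. Summed levels overlapped between the groups for each of the 8 lists, and no marker was at 0. Microglia markers summed to 22.3 to 30.4 CPM after restraint and 22.3 to 35.0 CPM in controls, and vascular markers to 28.9 to 39.3 CPM after restraint and 29.4 to 37.4 CPM in controls.

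Promoters were read from RefSeq (GRCm38.p6), as 250 bases before to 50 after the start, for 9 of the 10 genes, with 12 promoters in all, several of them for Gpx4. The core of the antioxidant response element, TGACNNNGC, which the NRF2 protein binds, occurs on either strand in 2 of the 12, those of Prdx1 and Sod1, and in 12.4% of all 32851 promoters. The STAT site TTCNNNGAA, sought because the series is about STAT3, reads the same on both strands and occurs in 1 of the 12, that of Sod2, and in 8.3% of all promoters. No match overlapped another. The 3 promoters are shown because they are those of the 12 with a match, in capitals, all on the plus strand, at chr4:116685349-116685648 for Prdx1, chr16:90220512-90220811 for Sod1 and chr17:13007589-13007888 for Sod2. In Prdx1 and Sod1 the capitals are the reverse complement of the core.
Prdx1: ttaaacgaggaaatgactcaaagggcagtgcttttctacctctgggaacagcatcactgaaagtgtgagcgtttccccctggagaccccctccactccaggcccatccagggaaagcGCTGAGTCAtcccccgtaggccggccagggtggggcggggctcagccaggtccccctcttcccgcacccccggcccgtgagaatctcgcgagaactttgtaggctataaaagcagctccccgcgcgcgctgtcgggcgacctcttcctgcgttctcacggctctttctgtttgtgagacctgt
Sod1: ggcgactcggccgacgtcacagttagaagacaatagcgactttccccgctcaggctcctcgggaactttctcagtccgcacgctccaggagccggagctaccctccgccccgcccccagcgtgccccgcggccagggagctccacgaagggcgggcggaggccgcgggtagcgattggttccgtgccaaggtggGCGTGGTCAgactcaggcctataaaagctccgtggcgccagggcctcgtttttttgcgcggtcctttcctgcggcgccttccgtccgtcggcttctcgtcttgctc
Sod2: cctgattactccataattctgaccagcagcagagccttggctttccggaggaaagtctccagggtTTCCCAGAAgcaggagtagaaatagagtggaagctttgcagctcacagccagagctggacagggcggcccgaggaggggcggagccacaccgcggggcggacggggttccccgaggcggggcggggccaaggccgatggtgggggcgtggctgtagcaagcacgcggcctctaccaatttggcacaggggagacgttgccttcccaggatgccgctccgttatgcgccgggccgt

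The match lies 133 bases before the start in Prdx1, 56 before it in Sod1 and 185 before it in Sod2, counted from its first base. Log2 fold changes of these 3 genes were -0.20, -0.35 and -0.08. A match is a description of letters and says nothing of binding in these samples.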

How the data were processed

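The authors deposited 1 table of whole-number read counts, with 10 libraries in 2 groups taken from the labels. Per the file headers, featureCounts 2.0.3 summed exons by gene on GENCODE M30 for paired input. No option for strand, multi-mapping reads or read pairs is set there, so both mates of a pair add to a count. Reads were handled with FastQC, Trimmomatic and STAR, per the submitters' processing notes, which name mm10. GENCODE M30 annotates GRCm39, and positions are those in the table. Symbols came from GENCODE M21 by identifier (52073 of 56691 genes). No gene row lacked an identifier.

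Genes were filtered with filterByExpr (minimum count 10, total 15; 18440 left), normalized by TMM and tested with edgeR 4.0.16 (glmQLFit, glmQLFTest, 1 term for group; R 4.3.3), with Benjamini-Hochberg adjustment and a threshold of 0.05. DESeq2 1.42.0 and limma 3.58.1 were alternatives, beside other scalings, filters, a replicate block, removal of the length trend (lowess, span 0.3) and each library left out. Standard errors come from the fold change and F, log2 CPM used a prior count of 2, and the length slope used genes with a mean log2 CPM above 4. On simulated data for restraint against control (18088 genes, changes added to well-counted genes), the test found 79% of the changes of 1.5-fold and 99% of those of 2-fold. Of its 185 calls, 3.8% were unchanged genes. The simulation gave genes of like level the same spread, without library differences such as the length slope. It tried no change below 1.5-fold, so it does not show how often changes like those of Sod1 (0.787) or Gpx4 (1.27) are found. The members and lists were chosen with earlier results of these data known. Named genes are the 10 members, the 4 of each pathway list with the smallest p and the leading markers. The 5 genes most like the members in profile are also named, with predicted models and genes with no symbol left out. Permutations used scipy 1.17.1. The log2 ratios of Sod1 to Sod2, Prdx2 to Prdx1 and Gpx4 to Sod1 were added after the values were seen, and the adjustment was first made over all 3 and then over 2, once Gpx4 to Sod1 was set aside as picked for its values.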

Additional observations from a re-analysis of the deposited data

Results flagged for a closer look

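In 20 groups of 5 values, the 10 genes in each condition, 1 value lay far from the rest by Dixon's test, where chance gives about 1 in 20. Prdx2 in control 2, at 249.5 CPM, lay below the other controls at 310.9 to 328.3 CPM, with a gap of 0.778 of the group's range, against a critical value of 0.71. Without control 2 the log2 fold change of Prdx2 was -0.31, against -0.25 with all libraries. Control 2 also had a positive length slope (0.07), whose part in this value was not tested.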

How the results depend on the processing

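Of the 10 genes, 0 passed as higher under every alternative. As lower, 2 passed with DESeq2, Sod1 and also Gpx1, whose level cannot be read from its counts. Without a filter on low counts 1 passed as lower (Sod1), and with limma-voom and quality weights 1 (Sod1). Over all genes, 4 passed in the main fit, 302 with DESeq2 and 302 without a filter, 87 with quality weights, 68 with the length trend removed, 17 with library size only, 0 with robust estimation, 0 with the replicate block and 0 without restraint 1 and control 4 (chosen, with halved counts, after seeing the data). Leaving out each library gave 0 to 92, with 92 without restraint 5, 20 without control 5, 17 without restraint 2, 2 without restraint 1 and 0 without restraint 3 or 4 or control 1, 2, 3 or 4. The cause was not tested. In the thioredoxin list 1 gene passed with DESeq2, without a filter and with quality weights, and 0 to 1 when each library was left out. In the list for superoxide partners and NRF2, 1 passed without a filter, and among selenoproteins 1 with DESeq2.

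The median log2 fold change of the 10 genes ran from -0.22 to -0.12 over all alternatives, and with the replicate block it was -0.18. Replicate numbers were shared by the groups only in name (correlations of deviations from -0.164 to 0.027, and 0 of 5 best with their own number). Prdx6 alone turned sign, between -0.12 and 0.0798 when each library was left out (0.0798 without restraint 4). The Sod1 to Sod2 ratio difference of -0.26 did not pass when adjusted over 2 ratios (exact permutation p = 0.0635) and was at 0.0476 when adjusted over all 3 computed, under the threshold only because the ratio picked for its values held the first rank. With libraries left out it ran from -0.32 to -0.20, and over 2 ratios was under the threshold only without control 2 (0.0317). The pair was chosen after the values were seen, so that value supports no call either. With the filter of at least 1 CPM in 5 libraries Gpx1 gave no value.

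Levels were also computed with each gene's principal transcript length and the common total kept on deposited lengths. Their mean over the 10 libraries was 2505 for Sod1, 166 for Sod2, 743 for Prdx1 and 861 for Prdx2. It was 76.9 for Prdx4, 1298 for Prdx5, 765 for Prdx6 and 1775 for Gpx4. Gpx1 had 14 to 141 reads per library, and with counts halved its log2 fold change was -1.36 (edgeR adjusted p = 0.144, from 0.026 to 0.396 over its alternatives).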
